A study of Mus musculus with 12 samples.

Results

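The small nucleolar and small nuclear RNAs of the mouse embryonic stem cell line CCE were followed here through 4 groups of 3 RNA-seq libraries. The members are the rows of the deposited table whose name starts with Snora, Snord, Scarna or Rnu followed by a digit, which holds for 127 of 37477 rows: 72 Snord, 26 Snora, 20 Rnu and 9 Scarna. Cells of 3 groups carried a lentiviral pLKO.1-puro short hairpin RNA against the long intergenic noncoding RNA TUNA, and their RNA was taken at day 2, day 4 or day 6 after transduction. The control group carried a control hairpin in the same vector and was sampled at day 2. All cells grew in serum medium with LIF, were selected with puromycin and gave total RNA extracted with Trizol. Because the one control is of day 2, hairpin and days in culture cannot be told apart at days 4 and 6. Whether the 3 libraries of a group are separate cultures is left unsaid in the labels, and each p-value covers only their spread, possibly a technical one. The row of the targeted RNA, 2810011L19Rik, was listed at 0 in all 12 libraries and so does not check the labels.

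Small nucleolar RNAs work as guides inside protein complexes in the nucleolus. Box C/D RNAs (Snord) direct methylation of the ribose in ribosomal RNA, box H/ACA RNAs (Snora) direct the change of uridine to pseudouridine, and Scarna RNAs do the same for small nuclear RNAs in Cajal bodies. A few box C/D RNAs, U3 first among them, are needed for cutting the ribosomal RNA precursor and not for a modification. The Rnu rows hold, among others, U3 and small nuclear RNAs of the spliceosomes, which recognise and remove introns. Most mouse snoRNAs are cut out of introns of host genes, many of which encode ribosomal proteins, whereas U3, U8 and the spliceosomal RNAs have promoters of their own.

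The sequences of the RNAs on which the results turn show the features that sort them into families. They are GENCODE M21 transcripts of the mouse build GRCm38; the deposited table was made on mm9, so no coordinates are given. U3 (Rnu3a, chromosome 10) and U8 (Snord118, chromosome 11) are the most abundant box C/D RNAs of the table, and capitals mark the box C letters TGATGA and the box D letters CTGA near the end:
Rnu3a: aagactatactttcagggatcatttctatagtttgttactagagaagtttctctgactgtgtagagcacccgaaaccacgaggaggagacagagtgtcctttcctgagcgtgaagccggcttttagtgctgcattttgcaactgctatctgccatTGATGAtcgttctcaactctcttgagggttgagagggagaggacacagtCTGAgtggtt
Snord118: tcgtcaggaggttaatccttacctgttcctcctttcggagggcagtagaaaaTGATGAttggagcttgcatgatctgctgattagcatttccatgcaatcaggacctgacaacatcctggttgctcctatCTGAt
Snord8 and Snord16a, with Snora15, Snora21 and Snora28, are the snoRNAs higher at both day 4 and day 6. Capitals mark TGATGA, which Snord16a does not hold, and the CTGA of box D in the first pair, and the ACA box near the 3′ end in the Snora RNAs:
Snord8: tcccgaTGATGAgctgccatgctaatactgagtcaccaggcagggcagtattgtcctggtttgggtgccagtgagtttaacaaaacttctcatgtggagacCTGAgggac
Snord16a: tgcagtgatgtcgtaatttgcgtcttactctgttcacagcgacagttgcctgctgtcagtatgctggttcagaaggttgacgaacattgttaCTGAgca
Snora15: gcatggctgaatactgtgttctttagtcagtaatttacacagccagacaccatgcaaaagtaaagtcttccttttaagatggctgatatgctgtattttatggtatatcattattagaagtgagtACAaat
Snora21: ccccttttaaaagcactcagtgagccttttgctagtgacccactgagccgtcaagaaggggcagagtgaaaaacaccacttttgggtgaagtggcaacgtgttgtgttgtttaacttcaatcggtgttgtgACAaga
Snora28: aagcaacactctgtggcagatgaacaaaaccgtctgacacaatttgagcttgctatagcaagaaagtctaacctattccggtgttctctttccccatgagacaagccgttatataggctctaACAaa
Snora75 is the most abundant H/ACA row with the ACA box in capitals, and Snord2 is the member with the lowest day 6 change, with box D in capitals:
Snora75: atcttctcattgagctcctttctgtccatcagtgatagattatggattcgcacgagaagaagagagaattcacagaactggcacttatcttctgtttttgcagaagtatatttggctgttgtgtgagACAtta
Snord2: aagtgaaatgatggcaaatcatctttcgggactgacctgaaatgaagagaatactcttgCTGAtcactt
Rnu1b2 is the sixth RNA higher at both days, a U1 small nuclear RNA, and capitals mark the 5′ stretch that pairs with the start of introns:
Rnu1b2: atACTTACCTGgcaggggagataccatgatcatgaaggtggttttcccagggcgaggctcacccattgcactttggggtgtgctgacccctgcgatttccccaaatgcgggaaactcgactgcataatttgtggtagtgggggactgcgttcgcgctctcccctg
Searched on the RNA strand alone, TGATGA was found in 49 of 70 Snord members with a sequence (70.0%), 0 of 26 Snora members and 26.1% of all 1507 snoRNA transcripts of that annotation. The letters CTGA stood within the last 15 bases in 91.4% of Snord members, 7.7% of Snora members and 31.4% of all those transcripts. ACA stood within the last 8 bases in 26 of 26 Snora members, 8.6% of Snord members and 46.8% of all those transcripts.

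The families differed in how many of their members had counts high enough to be tested. Values are the authors' normalized counts, and a row was tested when it had at least 10 in at least 3 of the 12 libraries. By this filter 21 of 26 Snora, 7 of 9 Scarna, 15 of 72 Snord and 6 of 20 Rnu rows were tested, 49 in all, and 48 of them would also pass without any 1 group (the exception was Snord67). A further 43 rows lay above 0 but under the filter, of which 41 were Snord. The highest single value among them was 11.5 normalized counts, for Snord55, and 6 of the 43 (Snord55, Snord33, Snord99, Snord49b, Snord43 and Snord68) were above 0 in all 12 libraries, while 12 of the 43 were above 0 in 3 libraries or fewer. The remaining 35 rows were listed at 0 in every library: 16 Snord, 13 Rnu, 5 Snora and 1 Scarna. No deposited log2 value is below 0, so a listed 0 can stand for up to 1 normalized count.

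Annotated length separated the tested rows from those with low values. Of 57 members of at least 100 nt, 42 were tested, 15 were at 0 throughout and 0 lay between; of 63 shorter members, 5 were tested, 17 were at 0 and 41 lay between. Within the Snord family, 10 of 11 rows of at least 100 nt were tested, against 5 of 59 shorter ones. Tested rows had a median length of 133 nt (69 to 414 nt) and the low rows one of 74 nt (62 to 93 nt). The limit of 100 nt was chosen after the values were seen. The sources used here do not say whether RNA fragments were selected by size, and whether that had a part in these levels was not tested.

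**Figure D1:**
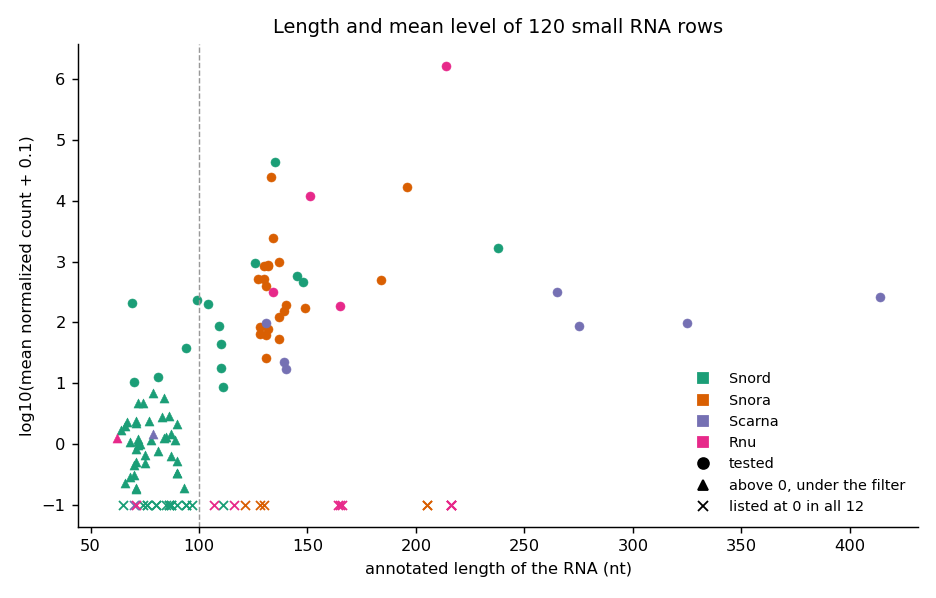
Each point is 1 of the 120 members with an annotated sequence, placed by its length in nucleotides and by log10 of its mean normalized count over 12 libraries after adding 0.1; colours mark the family, shapes mark tested rows, low rows and rows at 0, and the dashed line stands at 100 nt. All 41 low rows lie left of that line, and 42 of 47 tested rows lie right of it.

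Rows at 0 throughout included core RNAs of both machineries. Among them were Rnu6 (U6) and Rnu5g (U5), both parts of the major spliceosome, the U1 genes Rnu1a1, Rnu1b1 and Rnu1b6, the 4 U3 genes Rnu3b1 to Rnu3b4, Snora73a and Snora73b (U17, which acts in 18S ribosomal RNA maturation), and 4 rows of the U14 family (Snord14a, Snord14c, Snord14d and Snord14e). A listed 0 of such a row is therefore no sign that the RNA was missing from the cells. Near-identical copies were common: Rnu3b1 to Rnu3b4 are 100% identical to each other and 85.2% identical to Rnu3a, and Rnu1b1 is 100% identical to Rnu1b2, which had 103 to 297 normalized counts. Of 32 rows at 0 with a sequence, 17 shared a 30-base stretch with another small RNA gene and 11 shared all of theirs. The corresponding numbers were 15 and 1 of 47 tested rows, and 8 and 0 of 41 low rows. The authors' placing of reads that fit several copies is unknown, so values of copied genes are uncertain. Among rows described below, the share of 30-base stretches found in another small RNA gene was 100% for Rnu1b2, 87.7% for Rnu12, 73.3% for Snora65, 47.6% for Snora41, 41.3% for Snora75, 33.3% for Snora70, 33.0% for Snord118, 32% for Snora17, 30.6% for Snora21, 23.3% for Snora3, 19% for Rnu11, 15.7% for Snora68 and 13.5% for Rnu3a. The other tested rows with a sequence had 8.1% or less.

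The row of the annotated host gene lay above the member in 25 of 26 rows at 0 with a host row, 38 of 40 low rows and 16 of 35 tested rows. Among those 40, Snord123 had no separate host row, as the match by name returned its own row. Tex14, a germ cell gene that contains Rnu3b1 to Rnu3b4 and Rnu1a1 in GRCm38, took 17.4% to 22.7% of all normalized counts in each library, while those 5 RNAs were at 0. Snhg3, which hosts Snora73a and Snora73b, averaged 1553 ± 274 normalized counts at day 2, 2512 ± 1191 at day 4 and 2713 ± 1563 at day 6 of the TUNA hairpin, against 1616 ± 559 in the control (SD, n = 3 each). Hspa8, host of Snord14c, Snord14d and Snord14e, averaged 4657 ± 336, 3562 ± 158 and 4488 ± 313 normalized counts at days 2, 4 and 6, against 4761 ± 151 in the control. Which reads make up these host rows was not tested.

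A single RNA, U3, dominated every library. Rnu3a had 38.9%, 38.1% and 35.9% of all normalized counts in the day 2 libraries, 36.6%, 38.9% and 38.0% at day 4, and 35.8%, 30.9% and 31.9% at day 6, against 38.1%, 41.1% and 39.5% in the control. All 3 day 6 values lay under all 3 control values, and those of the other days overlapped them. Together the 127 members took 40.23% ± 1.83 at day 2, 41.35% ± 1.24 at day 4 and 36.12% ± 2.70 at day 6, against 41.95% ± 1.87 in the control (SD, n = 3 each). In two-sided exact permutation tests the p-values were 0.4, 0.6 and 0.1 for days 2, 4 and 6, and 0.1 is the smallest that 3 against 3 libraries can give.

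The rest of the members took a small and variable part. Outside the Rnu3 rows they held 4.68%, 4.39% and 3.55% of the remaining counts at day 2, 8.20%, 5.65% and 3.07% at day 4, and 5.21%, 6.35% and 3.07% at day 6, against 2.93%, 4.08% and 4.84% in the control. Every group overlapped the control, and the exact permutation p-values were 0.7, 0.4 and 0.4 for days 2, 4 and 6. The row LOC100503663, whose annotation was not used here, took a further 6.86% to 19.2%. Recovered totals were 3522130 to 5652410 reads per library, of which 856185 to 1730500 lay outside the members, Tex14 and LOC100503663.

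**Figure D2:**
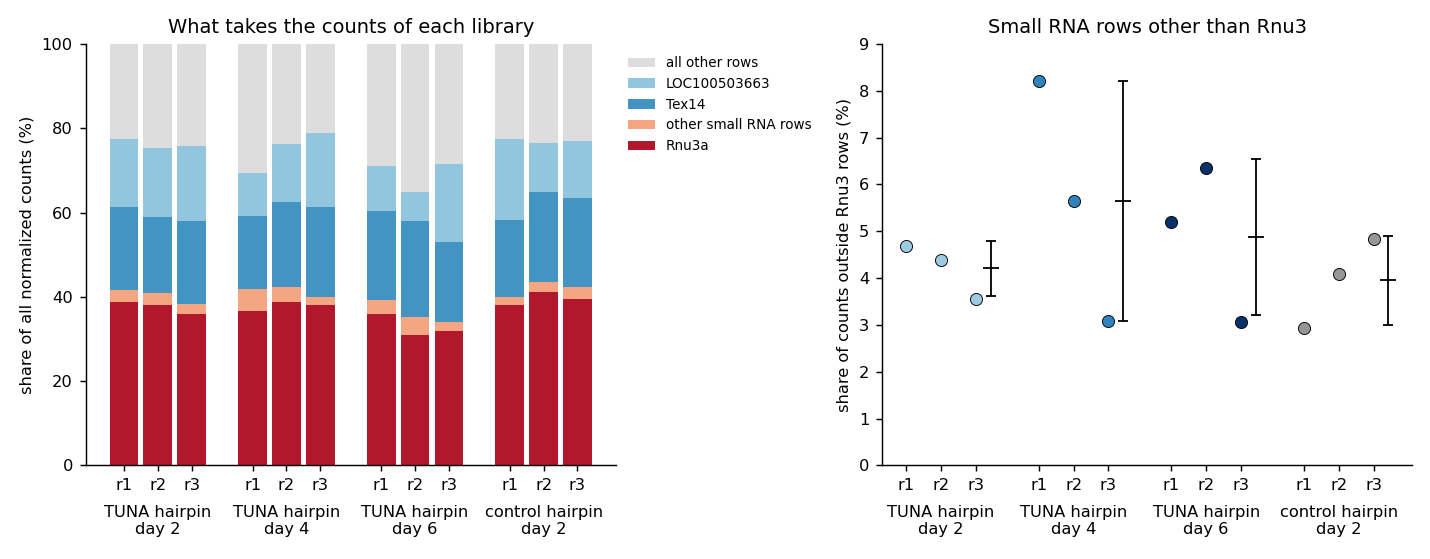
Left, the share of all normalized counts (%) taken in each library by Rnu3a, the other members, Tex14, LOC100503663 and all other rows; right, the share (%) of counts outside Rnu3 rows that the other members took, with points for libraries and bars for mean ± SD (n = 3). Rnu3a takes 30.9% to 41.1% everywhere, and the right panel spans 3.07% to 8.20% within the day 4 group alone.

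Libraries of 1 group differed from each other for most tested small RNAs at once. As the median over the 49 tested members of the log2 deviation from the mean over 12 libraries, the level was 0.24, −0.09 and −0.20 in the day 2 libraries and 0.82, 0.44 and 0.12 at day 4. It was −0.06, 0.20 and −0.44 at day 6, against −0.70, −0.36 and 0.05 in the control. The same median over all 8739 tested rows was between 0.00 and 0.03 in each library. Day 4 replicate 1 was the highest of its group for 39 of 49 members, beside 33.5% of all rows tested. Control replicate 1 was the lowest of its group for 30 of 49, beside 35.1% of all rows tested, and 29 members had both. The 6 members that were instead lowest in day 4 replicate 1 were Rnu3a, Rnu3b-ps1, Scarna2, Snora74a, Snord2 and Snord96a. In each group the library lowest for the members was the one with the highest share of LOC100503663: 17.7% at day 2, 17.4% at day 4 and 18.5% at day 6, against 19.2% in the control. The part of this library pattern in the group differences below was not tested beyond the values given with libraries left out.

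**Figure D3:**
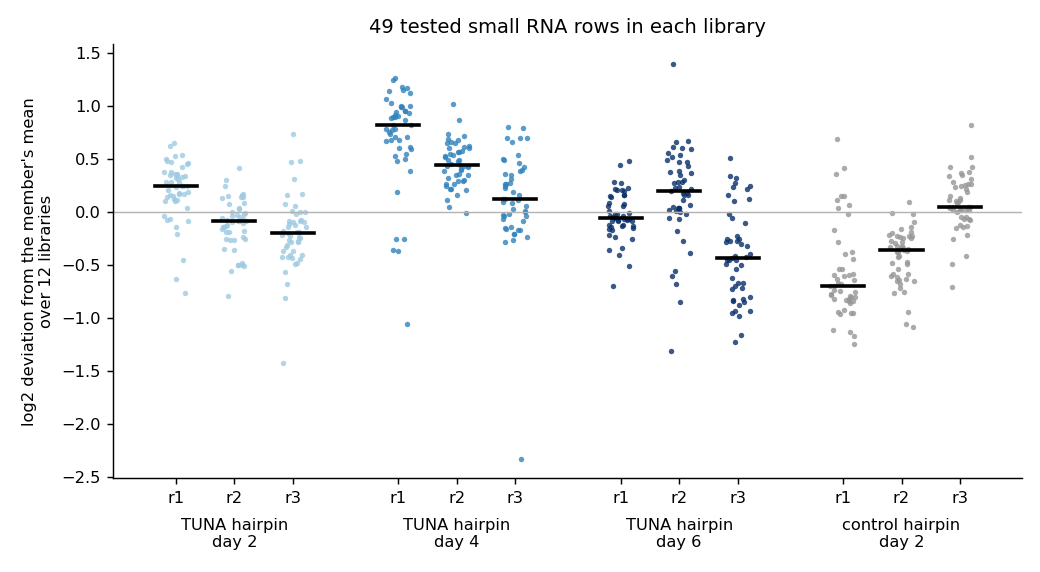
Each point is 1 of the 49 tested members in 1 library, as the log2 deviation from that member's mean over 12 libraries, and black bars are medians over members. The median is highest in day 4 replicate 1 (0.82) and lowest in control replicate 1 (−0.70).

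The most abundant members below Rnu3a did not pass the test on any day, apart from Snord22. With day 4 replicate 3 left out, 3 of them were called at day 4 by limma: Snora75 (0.96, adjusted p 0.0482), Snora64 (0.96, adjusted p 0.0388) and Snord17 (0.85, adjusted p 0.0171). Snord17 was also called without control replicate 3 (0.82, limma adjusted p 0.0412). Snord118 (U8, needed for maturation of the large ribosomal subunit RNAs in vertebrates) had 41511, 44651 and 34011 normalized counts at day 2, 82134, 64818 and 34853 at day 4, and 39288, 49619 and 21079 at day 6, against 22506, 34193 and 49919 in the control. Day 4 replicates 1 and 2 were the highest libraries, and every group overlapped the control. Per 100 nt of annotated length, Rnu3a averaged 771110 and Snord118 32011 normalized counts over the 12 libraries, followed by Snora75 at 18254, Snora74a at 8504 and Rnu12 at 7873. Rnu2, with a mean of 14875 normalized counts, had no matched length and is not in this order. Snora75, which lies in an intron of the nucleolin gene Ncl, averaged 25799 ± 6116, 31953 ± 6889 and 20260 ± 6268 normalized counts at days 2, 4 and 6, against 19099 ± 5918 in the control. Rnu2 (U2, which binds the branch point of introns) had 18658, 16755 and 18920 normalized counts at day 2 and 17838, 19853 and 2702 at day 4, against 14260, 10707 and 15790 in the control. Its day 2 libraries lay above all control libraries without passing the test (0.43 ± 0.49). The lone low value in day 4 replicate 3 lay under every other library, which held 10707 or more, and sets the sign of the day 4 change: −0.44 ± 0.49 with it and 0.49 without it. Snora74a had 12661, 19018 and 20983 normalized counts at day 4 and 16085, 11069 and 11939 at day 6, against 17710, 14626 and 19881 in the control, which both days overlapped (−0.01 ± 0.23 and −0.43 ± 0.23). Rnu12 (U12 of the minor spliceosome), Snora64, Snord17 and Snora16a overlapped the control on every day.

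Rnu3a itself had a log2 change of 0.03 ± 0.86 at day 2, −0.00 ± 0.86 at day 4 and −0.72 ± 0.86 at day 6 (± SE, limma). At day 6 it had 1248400, 886220 and 1193300 normalized counts, against 1783600, 1712400 and 1917200 in the control, and the groups did not overlap. The adjusted p at day 6 was 0.721 in the limma fit, in which the prior variance follows the mean level. Without that trend, an alternative added after the data were seen, the standard error was 0.21 and the limma adjusted p 0.0776. The rows most like Rnu3a in their log2 level over the 12 libraries were Pgm1 (Pearson r 0.945), Aire (0.943), Ncapd2 (0.910), Cadm1 (0.909) and Suz12 (0.909) among 8738 tested rows. All of these values share the libraries and their scaling, and Snora74a (0.907), Tex14 (0.897), LOC100503663 (0.845) and Rnu3b-ps1 (0.794) also ranked among the 84 most like it.

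Day 2 is the one comparison matched in time, and no member passed the test there. By limma with Benjamini-Hochberg adjustment over 8739 rows and a threshold of 0.05, 0 of 49 members were higher and 0 lower, beside 0.412% and 0.549% of all rows tested. At an unadjusted p under 0.05 the count was 5 (Snora31, Snord16a, Snord13, Snora21 and Snora7a, with log2 changes of 0.50 to 0.80), beside 12.3% of all rows tested, and limma-voom also called 0. The lowest limma adjusted p of a member was 0.172, for Snora31, an H/ACA RNA in an intron of Tpt1. It had 757, 584 and 496 normalized counts at day 2, against 256, 321 and 509 in the control. Control replicate 3 overlapped the TUNA group. The members' log2 changes had a median of 0.26 (−0.45 to 0.80), with 44 of 49 above 0, beside a median of 0.01 over all rows tested. Scaled to an equal total outside the members, Tex14 and LOC100503663, the median was 0.11 with 34 above 0 (all rows −0.14), and with limma-voom it was 0.155 with 41 above 0 (all rows −0.09).

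At day 4, 23 of the 49 tested members were higher than in the control and 0 were lower, which is 46.9% beside 6.99% of all rows tested that were higher and 7.76% that were lower. By family they were 11 of 21 Snora, 6 of 15 Snord, 4 of 7 Scarna and 2 of 6 Rnu rows. The median log2 change was 0.81 (−0.44 to 1.55), with 45 of 49 above 0, and the median over all rows tested was −0.01. The count depended on single libraries: it was 9 without day 4 replicate 1, 13 without day 4 replicate 2 and 31 without day 4 replicate 3. Without control replicate 1, 2 or 3 it was 10, 11 or 28. With each library left out in turn, 9 members were called every time: Snord8, Snord13, Snord16a, Snora7a, Snora15, Snora21, Snora28, Snora43 and Rnu1b2. Without both day 4 replicate 1 and control replicate 1, the count was 6 and the median 0.43.

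**Figure D4:**
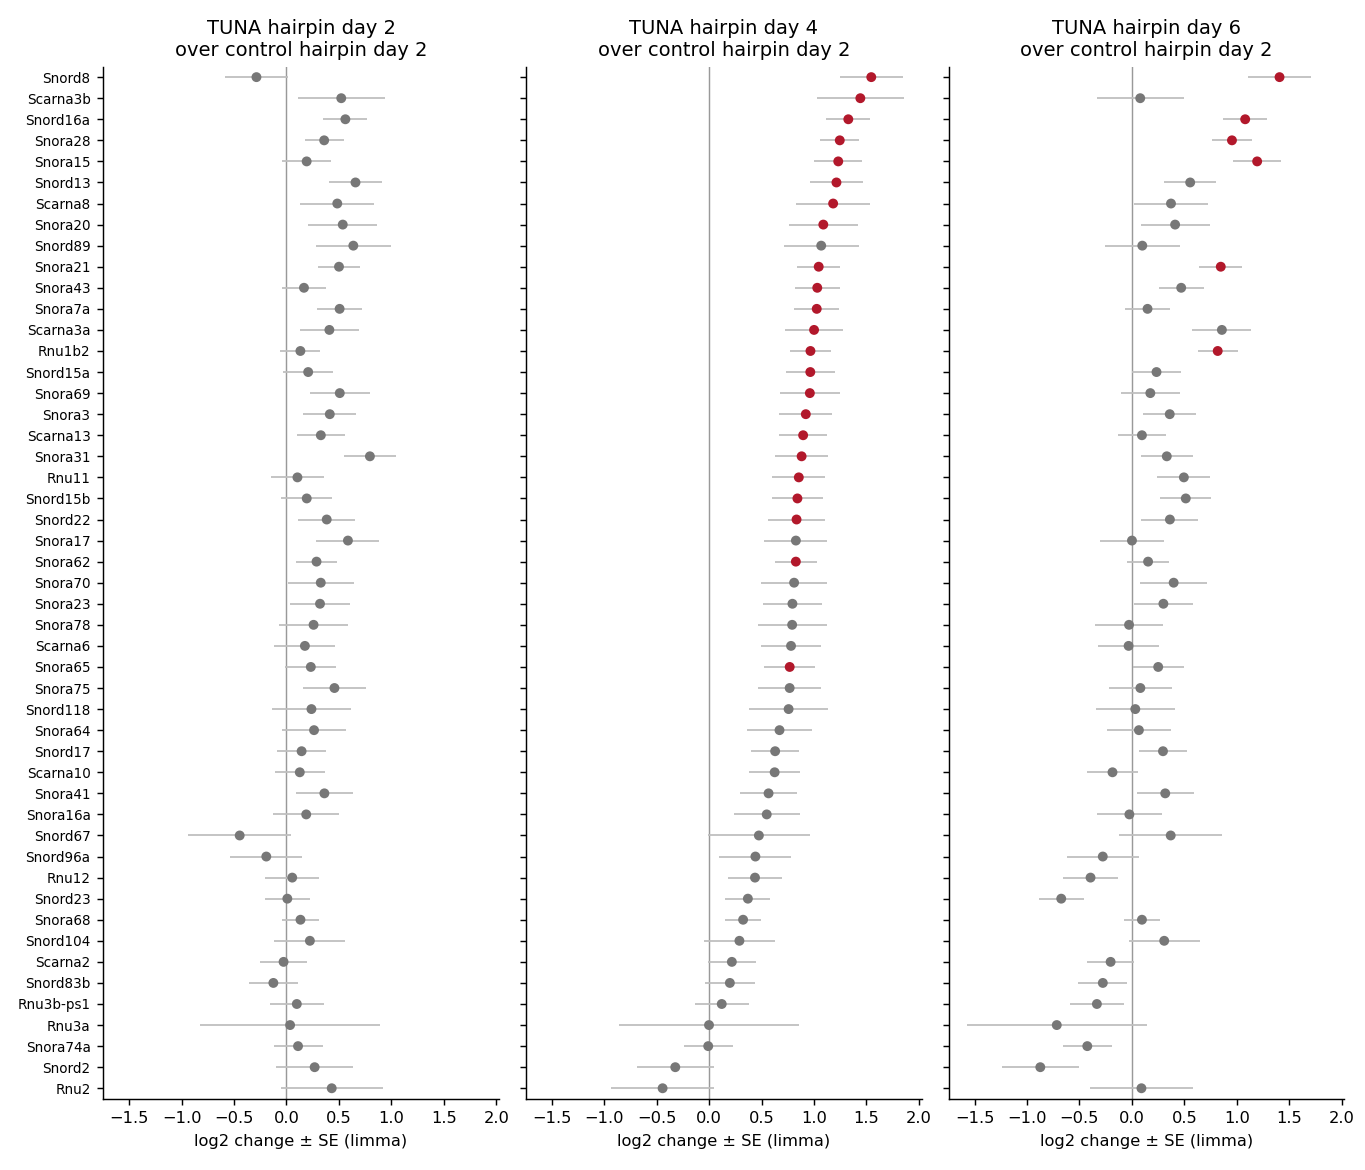
Log2 change ± SE (limma) of the 49 tested members for days 2, 4 and 6 of the TUNA hairpin over the control hairpin of day 2, ordered by the day 4 change; red points passed an adjusted p of 0.05. The panels hold 0, 23 and 6 red points, and Snord8 leads at day 4 with 1.55.

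The 6 box C/D RNAs called at day 4 include Snord8, the row with the greatest change of all 49, while the median over the 15 tested Snord rows was 0.76. Snord8, in an intron of Chd8, had 69.84, 75.07 and 60.19 normalized counts at day 4, against 20.98, 16.65 and 33.18 in the control. All day 4 libraries lay above all control libraries (log2 change 1.55 ± 0.30, limma adjusted p 0.00235). An annotated antisense gene overlaps Snord8, and the sources used here do not say whether reads were counted by strand. Snord16a, in an intron of Rpl4, had 381, 291 and 306 normalized counts at day 4, against 111, 103 and 186 in the control. The groups were again apart (1.33 ± 0.21, limma adjusted p 0.000492). Snord13 (U13, which has its own promoter and in human cells guides an acetylation of 18S ribosomal RNA) had 358, 293 and 219 at day 4, against 85.4, 110 and 193 in the control (1.21 ± 0.25, limma adjusted p 0.00341). The control library nearest to the day 4 group was replicate 3, as for most members. Snord15a, Snord15b and Snord22 had log2 changes of 0.96, 0.84 and 0.83 and were not called with control replicate 1 or day 4 replicate 1 left out. Snord22 (U22, needed for 18S ribosomal RNA in Xenopus) rose by 0.83 ± 0.27 (limma adjusted p 0.0473), and its groups overlapped.

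The 11 H/ACA RNAs called had log2 changes from 0.77 for Snora65 to 1.25 for Snora28. Snora28, in an intron of the translation factor gene Eif5, had 926, 652 and 646 normalized counts at day 4, against 271, 315 and 341 in the control. It was the member with the lowest p (1.25 ± 0.19, limma adjusted p 0.000329). Snora15, in the chaperonin gene Cct6a, had 38.9, 27.3 and 41.6, against 14.4, 15.2 and 13.9 in the control (1.23 ± 0.23, limma adjusted p 0.00168). Its control libraries were close together, and each day 4 library stood well above them. Snora21, in Rpl23, averaged 162 ± 24.4 at day 4 and 79.5 ± 23.7 in the control (SD, n = 3 each), a log2 change of 1.04 ± 0.20. Snora43 and Snora7a changed by 1.03 ± 0.21 and 1.03 ± 0.22. The other 6, Snora3, Snora20, Snora31, Snora62, Snora65 and Snora69, changed by 0.77 to 1.09 and were each lost without at least 1 library, day 4 replicate 1 among them.

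The 4 Scarna rows and 2 Rnu rows called at day 4 came from families with median log2 changes of 0.90 over 7 tested rows and 0.28 over 6. Scarna3b had 47.2, 35.5 and 30.7 normalized counts at day 4, against 7.46, 11.2 and 26.0 in the control (1.44 ± 0.41, limma adjusted p 0.0259). Scarna8, Scarna3a and Scarna13 had log2 changes of 1.18, 1.00 and 0.90, and none of the 4 was called without day 4 replicate 1. Rnu1b2, a U1 row shown above, had 297, 239 and 211 normalized counts at day 4, against 116, 103 and 166 in the control. The groups did not overlap (0.97 ± 0.19, limma adjusted p 0.00265), and reads of its identical copy Rnu1b1 cannot be told apart from its own. Rnu11 (U11 of the minor spliceosome) averaged 442 ± 144 at day 4 and 240 ± 63.5 in the control (SD, n = 3 each), with overlapping groups (0.85 ± 0.25, limma adjusted p 0.0301). An annotated antisense gene overlaps Rnu11, and its call was lost without day 4 replicate 1 or 2 or control replicate 1 or 2.

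At day 6, 6 of the 49 tested members were higher than in the control and 0 were lower, which is 12.2% beside 3.07% of all rows tested that were higher and 3.15% that were lower. They were Snord8, Snord16a, Snora15, Snora21, Snora28 and Rnu1b2, and each had also been called at day 4 against the same control libraries. The median log2 change over the 49 was 0.18 (−0.87 to 1.41), with 36 above 0, beside −0.01 over all rows tested. Snord8 had 51.4, 98.3 and 46.6 normalized counts at day 6, against 20.98, 16.65 and 33.18 in the control (1.41 ± 0.30, limma adjusted p 0.00865). Day 6 replicate 2 was far above the other day 6 libraries, and all of them exceeded the control. Snora15 had 32.3, 37.7 and 33.8 normalized counts at day 6, against 14.4, 15.2 and 13.9 in the control (1.19 ± 0.23, limma adjusted p 0.00419). Snord16a had 251, 299 and 270, against 111, 103 and 186 in the control (1.08 ± 0.21, limma adjusted p 0.00431). In neither did the groups overlap.

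Snora28 averaged 608 ± 148 normalized counts at day 6 and 309 ± 35.3 in the control (SD, n = 3 each), a log2 change of 0.95 ± 0.19 (limma adjusted p 0.0044). Snora21 and Rnu1b2 had 0.85 ± 0.20 and 0.82 ± 0.19. Snora15, Snora28 and Snord16a were called with each library left out in turn. Snord8 was lost without control replicate 2, Rnu1b2 without day 6 replicate 2 or control replicate 1 or 2, and Snora21 without day 6 replicate 1 or 2 or control replicate 1 or 2. The count ran from 3, without control replicate 2, to 7. Snord2, a short C/D RNA in an intron of Eif4a2, had the lowest day 6 change, −0.87 ± 0.37, and did not pass the test (limma adjusted p 0.196). It had 134, 76.7 and 178 normalized counts at day 6, against 310, 149 and 248 in the control, and the groups overlapped.

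**Figure D5:**
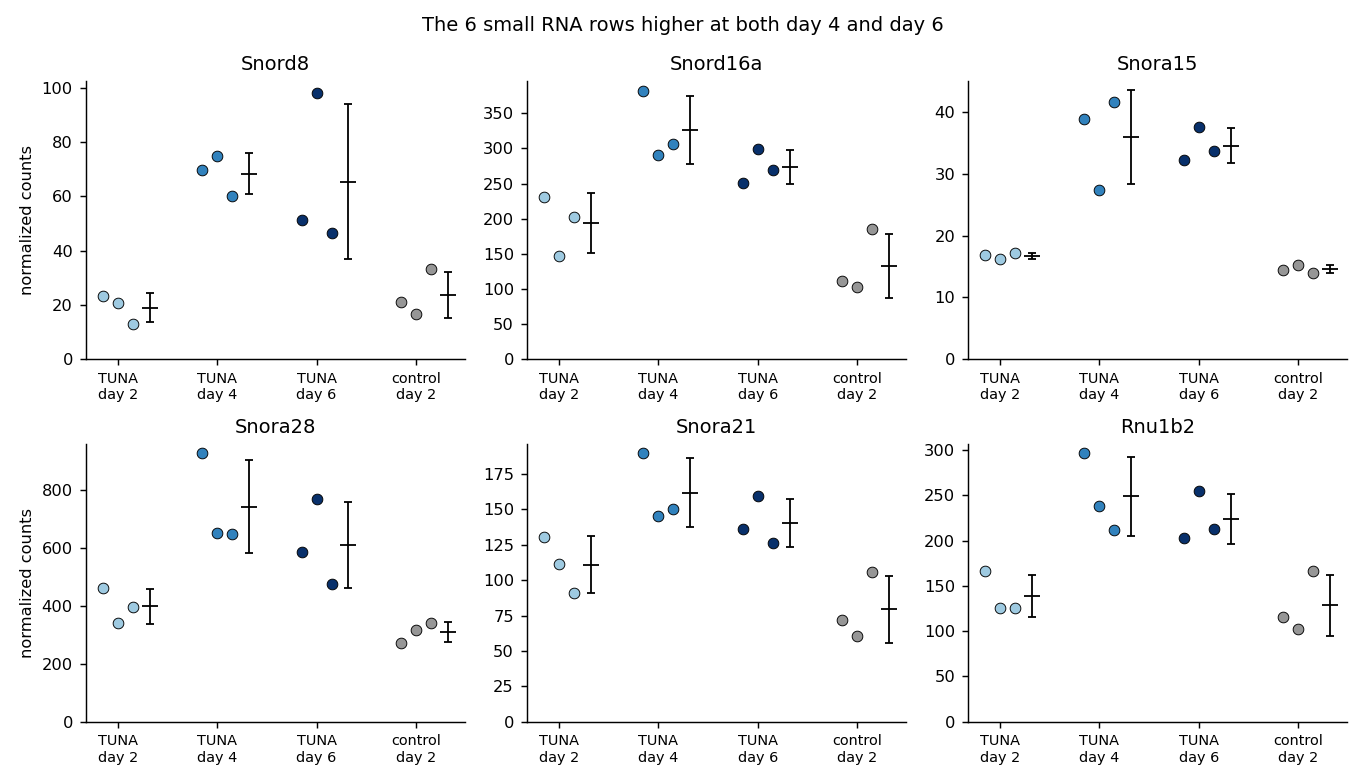
Normalized counts of the 6 members called at both day 4 and day 6, with points for the 3 libraries of a group and bars for mean ± SD (n = 3); each panel's axis starts at 0. For Snora15 the day 2 libraries hold 16.2 to 17.2, the day 6 libraries 32.3 to 37.7 and the control libraries 13.9 to 15.2.

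Between days of the TUNA hairpin, the comparisons do not involve the control. At day 4, 6 members were higher than at day 2 (12.2% beside 3.27% of all rows tested) and 0 were lower (4.38% of all rows): Snord8, Snora15, Snora28, Snora43, Rnu1b2 and Snord16a. Snord8 had 69.8, 75.1 and 60.2 normalized counts at day 4, against 23.2, 20.6 and 13.0 at day 2 (1.83 ± 0.30, limma adjusted p 0.0014). Snora15 averaged 35.96 ± 7.58 at day 4 and 16.7 ± 0.482 at day 2 (SD, n = 3 each), a log2 change of 1.04 ± 0.23 (limma adjusted p 0.0107). Snord8 and Snora15 were called with each library left out. The other 4 were not called without day 2 replicate 2, and the count ran from 2 to 8 over single libraries left out.

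At day 6, 2 members were lower than at day 4 (4.08% beside 2.94% of all rows tested) and 0 were higher (2.64% of all rows). Snord23, in an intron of Gltscr2, had 74.9, 51.1 and 41.4 normalized counts at day 6, against 122, 109 and 108 at day 4 (−1.04 ± 0.21, limma adjusted p 0.00741). Snora7a, in Rpl32, had 164, 186 and 115 at day 6, against 338, 299 and 218 at day 4 (−0.88 ± 0.22, limma adjusted p 0.0227). Neither pair of groups overlapped. Snord23 was called with each library left out, whereas Snora7a was lost without day 4 replicate 1 or 2 or day 6 replicate 1 or 3. The median over the 49 members was −0.55, with 2 above 0, and that over all rows tested was 0.01. With the equal outside total it was −0.35 with 8 above 0 (all rows 0.20), and with limma-voom −0.04 with 21 above 0 (all rows 0.49).

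The other tested members were not called in any comparison. Snord89 came nearest at day 4, with 28.6, 24.4 and 23.0 normalized counts, against 13.1, 9.89 and 11.8 in the control. The groups did not overlap, and the limma adjusted p was 0.0522 (1.07 ± 0.36). Snora17, Snora70, Snora23, Snora78 and Scarna6 had day 4 log2 changes of 0.83, 0.81, 0.79, 0.79 and 0.78 with overlapping groups, and 0.00, 0.40, 0.30, −0.03 and −0.03 at day 6. Over the 12 libraries Snora17 ran from 439 to 1665 normalized counts, Snora23 from 273 to 888, Scarna6 from 154 to 555, Snora78 from 43.6 to 189 and Snora70 from 25.6 to 81.1. Scarna10, Snora41 and Snora68 had day 4 changes of 0.62, 0.57 and 0.32 and day 6 changes of −0.19, 0.32 and 0.10.

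The remaining uncalled rows were mostly low. Scarna2, a long Scarna RNA with 193 to 411 normalized counts, had log2 changes of 0.22 at day 4 and −0.20 at day 6. Rnu3b-ps1, a U3 pseudogene with 32.7 to 79.3 normalized counts, had 0.12 and −0.33, and Snord83b, with 27.0 to 53.3, had 0.20 and −0.28. Snord104, Snord96a and Snord67 had highest values of 14.76, 20.03 and 18.53 normalized counts, with day 4 changes of 0.29, 0.44 and 0.47 and day 6 changes of 0.31, −0.28 and 0.37. Snord67 reached 10 normalized counts in 3 libraries of 3 groups: day 4 replicate 1 (18.53), day 6 replicate 2 (12.12) and control replicate 3 (14.24).

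Host rows did not pass the test beside the members called. Of the 23 members called at day 4, 18 had a tested host row, and 0 of these 17 rows were called; their log2 changes ran from −1.20 (Snhg1, host of Snord22) to 0.60 (Rpl23, host of Snora21). Whether member and host differed in their change was not tested. Snhg1 had 19.9, 13.5 and 14.8 normalized counts at day 4, against 16.2, 36.7 and 88.6 in the control. Chd8, host of Snord8, averaged 80.1 ± 5.35 at day 4 and 79.9 ± 1.88 in the control (SD, n = 3 each). Over all 75 host rows, of which 69 were tested, 2 were higher and 6 lower at day 4 (2.90% and 8.70% beside 6.99% and 7.76% of all rows). Among them Eif4g1, a translation initiation factor gene, fell by 1.29 ± 0.14 on the log2 scale. At day 2, 2 of the 69 were higher (2.90% beside 0.412% of all rows) and 0 lower (0.549% of all rows). The rises were Ncl, which encodes the nucleolar protein nucleolin, and Nop56, whose protein is part of every box C/D complex. Ncl had 3866, 3155 and 2921 normalized counts at day 2, against 562, 485 and 415 in the control (2.76 ± 0.18, limma adjusted p 6.732e-08). Nop56 had 1568, 3552 and 3073, against 153, 128 and 225 in the control (3.96 ± 0.25, limma adjusted p 6.732e-08). At day 4 Ncl fell by 0.75 ± 0.18, while Nop56 had −0.34 ± 0.25 and was not called, and at day 6 neither was called. At day 6 Eif4g1 was the 1 host row called, and it fell by 0.64 ± 0.14. Of the tested host rows, 1.45% were thus lower and 0 higher, beside 3.15% and 3.07% of all rows. Among 10 tested noncoding host genes, day 4 gave 1 rise (Snhg11, 1.63 ± 0.24) and 3 falls (1500012F01Rik, 2810026P18Rik and Gas5), with a median of −0.51, and days 2 and 6 gave 0 calls by limma.

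Genes for the proteins that build and use these RNAs tended to lower values at day 4. Of 136 genes in 7 lists, 120 were tested, and at day 4 18 were lower and 0 higher, which is 15.0% beside 7.76% of all rows tested that were lower. Their median log2 change was −0.34, beside −0.01 over all rows tested. At day 2, 2 were higher (Nop56, above, and the exosome gene Exosc8), 1.67% beside 0.412% of all rows tested. None were lower, beside 0.549% of all rows. At day 6, 0 were called by limma, beside 3.07% of all rows tested that were higher and 3.15% that were lower. The count of 18 was 9 without control replicate 1 and 22 without day 4 replicate 3.

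The U3 processome is the complex around U3 that starts small subunit assembly. It held 9 of these falls among 29 tested genes, 31.0% beside 7.76% of all rows tested that were lower. No count with libraries left out was made for this list alone. Dcaf13 averaged 18.2 ± 2.07 normalized counts at day 4 and 44.2 ± 3.36 in the control (−1.24 ± 0.22, limma adjusted p 0.00123; SD and SE, n = 3 each). Cirh1a and Utp15 each fell by 0.84, Bysl fell by 1.00. In the other lists Ruvbl1, an assembly factor of box C/D complexes, fell by 1.15 ± 0.27, and Wrap53, which brings Scarna RNAs to Cajal bodies, fell by 1.06 ± 0.23. The Sm protein gene Snrpb and the splicing factor gene Prpf31 fell by 1.08 and 0.54. Ints6, Ints7 and Ints3, subunits of the Integrator complex that cuts the ends of small nuclear RNA precursors, fell by 1.02, 1.06 and 0.78. The exosome genes Dis3 and Exosc5 fell by 0.59 and 1.03. None of the 5 tested genes of the box H/ACA list was called at day 4, beside 6.99% of all rows tested that were higher and 7.76% lower. So few genes cannot set this list apart. Its median log2 change was −0.36, close to the −0.34 over all 120 tested list genes.

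Marker genes gave the state of the cells beside these changes. All 8 stem cell markers were above 0. Their summed normalized counts were 2752 to 2906, 2624 to 2787 and 1846 to 2289 on days 2, 4 and 6, against 3023 to 3239 in the control. At day 4, Pou5f1, Nanog, Zfp42, Esrrb and Fgf4 averaged lower than in the control, and Sox2, Dppa5a and Tdgf1 higher. Pou5f1 averaged 495.8 ± 57.1 at day 4 and 737.1 ± 67.9 in the control, and Tdgf1 367.1 ± 18.4 and 293.2 ± 47.0 (SD, n = 3 each). At day 6 all 8 averaged lower than in the control. Of 8 fibroblast or feeder genes, 5 were at 0 throughout (Col1a1, Col1a2, Col3a1, Dcn and Lum), and the list summed to 12.3 to 34.5, 15.7 to 26.0 and 242 to 331 at days 2, 4 and 6, against 6.62 to 10.3 in the control. The day 6 sum came from the contractile genes Acta2 and Tagln, which averaged 140.3 ± 37.6 and 149.3 ± 7.43 normalized counts at day 6, against 0.368 ± 0.637 and 6.24 ± 1.63 in the control (SD, n = 3 each). Of 6 endoderm genes, Afp, Ttr and Apoa1 were at 0 throughout, and the list summed to 17.1 or less everywhere. The 4 neural genes summed to 15.7 to 22.4, 20.8 to 25.9 and 41.7 to 54.0 at days 2, 4 and 6, against 21.1 to 35.9 in the control. Of these, Nes averaged 28.4 ± 6.66 at day 6 and 4.64 ± 4.10 in the control, and Tubb3 8.96 ± 0.404 at day 6 and 16.3 ± 7.59 in the control. Whether these shifts had a part in the small RNA levels was not tested. In such bulk samples fewer cells of a type and less RNA per cell cannot be told apart.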

How the data were processed

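Total RNA of 12 libraries (4 groups of 3) was measured by RNA-seq. The authors deposited 1 table of 37477 rows in log2 normalized counts; BWA, DESeq and the build mm9 are named without versions in the submitters' processing notes. Treatment of multiply placed reads and of strand: not given in the sources used here. Values were raised from log2 to normalized counts, with a listed 0 set to 0, and 21694 rows were at 0 throughout. The step on whose multiples low values clustered was taken as 1 read per library and gave totals of 3522130 to 5652410 reads. Within a tolerance of 0.02 reads, 39.4% to 60.2% of values under 20 normalized counts were whole, so the values are not whole counts. That depth covers counting error only and limits rows of a few reads most.

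The main model (limma 3.58.1, R 4.3.3) took log2(value + 1) of the 8739 rows kept, over all 12 libraries with 1 coefficient per group and a variance trend, and every adjusted p of a gene comes from this fit unless another is named. Adjustment was by Benjamini-Hochberg within each of 5 comparisons (each day against the control, day 4 against day 2, day 6 against day 4). Summed shares were compared by exact permutation tests in scipy 1.17.1. Alternatives were other filters, pseudocounts and scalings (trimmed mean of M values, TMM, median of ratios, or an equal total outside the members, Tex14 and LOC100503663), limma-voom, a replicate block, the groups alone and each library left out. Errors are SD for levels and SE for log2 changes, which are on the log2(value + 1) scale and understate changes of low rows.

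Of the members, 121 matched GENCODE M21 by symbol and 120 had a sequence, from which lengths, hosts, copies and motifs were taken with Biopython 1.88. Named are the 10 members with the greatest mean share, every called member, their host rows and at most 4 called genes per list; other tested members are given by range and log2 change, and 1 host row is not reported here. Members and lists were chosen with earlier results of these data known. Figures were drawn with matplotlib 3.10.9.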

Additional observations from a re-analysis of the deposited data

Results flagged for a closer look

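The change from 1 day of the TUNA hairpin to another passed the test for 8 members, that is, their change against the shared control differed between these days. From day 2 to day 4, 6 of 49 were higher (12.2% beside 3.27% of all rows tested). From day 4 to day 6, 2 of 49 were lower (4.08% beside 2.94% of all rows tested), a share near that of all rows. Day 4 over day 2, the log2 change was 1.83 for Snord8, 1.04 for Snora15, 0.89 for Snora28, 0.86 for Snora43, 0.83 for Rnu1b2 and 0.76 for Snord16a. Day 6 over day 4, it was −1.04 for Snord23 and −0.88 for Snora7a. With limma-voom, 1 of the first 6 (Snord8) and 0 of the last 2 were called.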

How the results depend on the processing

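Every called member kept its sign under every alternative run; which members passed the test did change. The day 4 count of 23 higher members was 13 with an equal total outside the members, Tex14 and LOC100503663, 10 with limma-voom, 13 without the variance trend, 6 without both day 4 replicate 1 and control replicate 1, and 9 to 31 with 1 library left out; a filter of 5 normalized counts added 1 lower member. The day 6 count of 6 higher was 10 with limma-voom and 3 to 7 with 1 library left out, which gave 0 to 1 lower. Day 4 over day 2, the 6 higher became 1 with limma-voom, 3 without the variance trend and 2 to 8 with 1 library left out. Day 6 over day 4, the 2 lower became 4 with a pseudocount of 4, 1 with the equal outside total, the groups alone or no variance trend, 0 with limma-voom and 1 to 9 with 1 library left out. The equal outside total moved the median log2 change of all rows to −0.14, −0.17 and 0.02 at days 2, 4 and 6, and limma-voom, scaled to whole totals, to −0.09, −0.06 and 0.43; the members' day 4 median was then 0.65 and 0.77.

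For the protein lists, the day 4 count of 18 lower was 33 with the equal outside total, 11 with limma-voom, 8 without both named libraries and 9 to 22 with 1 library left out, where 0 to 1 were higher. Their day 2 count of 2 higher was 1 without the variance trend and 1 to 2 with 1 library left out, and at day 6 3 were higher with limma-voom, while 1 library left out gave 0 to 1 in either direction. For host rows at day 4, the 2 higher became 1 with the equal outside total, the groups alone, no variance trend or without both libraries, 0 with limma-voom and 0 to 7 with 1 library left out, and the 6 lower became 12 with the equal outside total and 3 to 7 with 1 library left out. At day 6, limma-voom gave 6 higher and 0 lower host rows, and 1 library left out gave 0 to 1 lower; at day 2 it gave 2 to 3 higher. The list and host counts, the fit without the variance trend and the removal of both libraries were added after the data were seen. Apart from fewer libraries in those left out, the cause was not tested.

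The difference in the summed share of all members at day 4 over control, −0.60 percentage points, was −1.63 to 0.19 with 1 library left out, and that without Rnu3 rows at day 2, 0.26, was −0.25 to 0.70. The day 2 difference of −1.72 for all members was −2.75 to −0.70 with 1 library left out. In the total without Tex14 and LOC100503663 the differences for all members were −1.71, −2.08 and −10.55 points on days 2, 4 and 6, against −1.72, −0.60 and −5.82 in the whole total, and those without Rnu3 rows 0.60, 2.53 and 0.11, against 0.26, 1.69 and 0.93. With 1 library left out these last were 0.41 to 2.98 on day 4 and 0.19 to 1.83 on day 6. Some changes of abundant members that were not called turned sign. With 1 library left out, day 2 changes were −0.006 to 0.079 for Rnu3a, −0.054 to 0.52 for Snord118, −0.009 to 0.21 for Snora74a, −0.13 to 0.33 for Rnu12 and −0.062 to 0.33 for Snord17. Day 4 changes were −0.15 to 0.21 for Rnu3a, −0.15 to 0.21 for Snora74a and −0.95 to 0.49 for Rnu2. Day 6 changes were −0.26 to 0.39 for Snord118, −0.17 to 0.37 for Snora75, −0.071 to 0.21 for Rnu2, −0.18 to 0.40 for Snora64 and −0.27 to 0.29 for Snora16a. With the equal outside total, day 2 changes were −0.12 for Rnu3a, −0.043 for Snora74a, −0.098 for Rnu12 and −0.009 for Snord17, and that of Snora16a at day 6 was 0.007. With limma-voom they were −0.074 for Rnu3a and −0.059 for Rnu12 at day 2, and 0.018 for Snora74a, 0.048 for Rnu12 and 0.42 for Snora16a at day 6. At day 4, TMM and median of ratios gave 0.012 and 0.008 for Rnu3a, and 0.005 and 0.00 for Snora74a. Without both libraries the values were 0.20 for Rnu3a, 0.23 for Snora74a and −0.008 for Snora16a, for which 1 library left out gave up to 0.865.

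Libraries of different groups with the same replicate number did not deviate together: over 18 such pairs the correlation of deviations from group means ran from −0.28 to 0.33, and 3 were over 0.1. With the replicate block the day 4 count was 21, and no count of members moved by over 1.5 times. Rows of a few reads, most Snord rows among them, are beyond what this depth can test.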

Other observations

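Other small noncoding RNAs that the naming rule leaves out were looked up after the data were seen. Rmrp, the RNA of RNase MRP, which cuts ribosomal RNA precursors, had 14522, 9814 and 7484 normalized counts at day 4, against 4284, 5238 and 7275 in the control. The groups did not overlap and the limma log2 change was 0.90 ± 0.25 (adjusted p 0.0207), while day 2 and day 6 gave 0.20 ± 0.25 and 0.09 ± 0.25 and were not called. Rny3, a Y RNA, had 63.2, 54.3 and 45.2 at day 4 and 45.8, 64.1 and 35.1 at day 6, against 27.3, 15.5 and 24.3 in the control. It was called at both days, with log2 changes of 1.27 ± 0.25 (limma adjusted p 0.00276) and 1.07 ± 0.25 (limma adjusted p 0.0148).

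Rn7sk (the RNA that holds back the elongation factor P-TEFb), Rpph1 (of RNase P), Terc (of telomerase) and Vaultrc5 (a vault RNA) had day 4 log2 changes of 0.77 ± 0.41, 0.65 ± 0.23, 0.89 ± 0.31 and 0.82 ± 0.28. None of these 4 passed the test at day 4, where limma adjusted p-values ran from 0.0552 to 0.219. Within the day 4 group all 6 of these RNAs were highest in replicate 1 and lowest in replicate 3. In the control group, 5 of the 6 were lowest in replicate 1, and Rny3 was lowest in replicate 2.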
